A study of Drosophila melanogaster with 6 samples.

Results

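Structural cuticle proteins are the proteins that, bound to chitin, make up the insect exoskeleton. The genes described here were all genes of the fly array whose symbol begins with Cpr and a digit, Lcp, Ccp84A, Twdl, Pcp, Acp65, or Edg and a digit, and which have at least 1 probe set (a group of short oligonucleotides against 1 transcript) annotated to that symbol alone. They were chosen by name and not by their values, though with earlier results of these data known. The rule gave 98 probe sets for 92 genes, of 10844 genes measured in all, and a gene with several probe sets was represented by the one of highest mean over the 6 arrays. They are grouped here as 6 larval genes (5 Lcp genes with Acp65Aa, which is named for the adult cuticle but lies in the same run as the Lcp65A genes), 8 pupal genes (Pcp, 3 Edg genes and 4 Ccp84A genes), 20 Tweedle genes and 58 other Cpr genes. Of the names in the larval and pupal groups, Lcp and Pcp themselves state the stage, and the other assignments are a convention of this grouping. No probe set carried the symbol Cpr alone, which names a cytochrome P450 reductase gene and no cuticle protein. The RefSeq gene table holds 125 genes under these names, 3 of them pseudogenes. Of the 33 that are not among the 92, 10 shared a probe set with another gene, and the others, among them Lcp1 to Lcp4, were not analysed here.

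RNA came from wing imaginal discs of Drosophila melanogaster in the third larval instar. The discs are the epithelial sacs that form the adult wing and notum. In 3 samples, called ACT1 to ACT3, an activated form of the epidermal growth factor receptor (the label adds TOP) was expressed with the 71B-Gal4 driver, and in 3 samples, called DN1 to DN3, the same driver expressed a dominant negative, signal-blocking form. The labels do not say in which disc cells this driver is active. Flies of both groups were raised at the same temperature, and the labels give neither sex nor larval age in hours. Discs that carry no transgene were not analysed here, and each difference below is therefore one between an activated and a blocked receptor. Whether replicates are separate dissections is not stated in the labels, so the p-values cover the variation among these arrays alone, part or all of which may be technical.

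Most cuticle proteins of insects, here the Cpr, Lcp, Pcp, Ccp84A, Acp65A, Edg78E and Edg84A proteins, carry the Rebers and Riddiford consensus, a domain that binds chitin. Tweedle proteins form a separate family without it, and dominant mutations in some Tweedle genes give short, stout larvae. Cuticle genes are expressed by epidermal cells in waves before each moult, timed by pulses of the steroid hormone ecdysone, and imaginal discs secrete the pupal and later the adult cuticle of the wing. The name Edg stands for ecdysone-dependent gene.

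The unit throughout is the log2 signal of a probe set, or a difference of 2 such values. Array medians lay between 8.01 and 8.06. Of 10 wing disc markers 8 were measured, and all 8 lay above the highest yeast control probe set, whose transcript is not of the fly, on all 6 arrays. Markers of other tissues were measured too. Their list means, on the log2 signal scale, were 8.30, 8.55 and 9.07 in ACT1, ACT2 and ACT3 and 8.54, 9.51 and 9.55 in DN1, DN2 and DN3 for 8 measured salivary gland markers. For 4 fat body markers they were 8.64, 9.37 and 9.72 in ACT1, ACT2 and ACT3 and 9.52, 9.74 and 10.41 in DN1, DN2 and DN3. The means for 7 tracheal markers lay between 9.53 and 9.91 in ACT discs and between 9.736 and 9.999 in DN discs. Single tracheal markers differed in direction, with 2 higher and 5 lower in ACT discs. Among the 2, vvl read 10.34 ± 0.20 in ACT discs and 9.34 ± 0.33 in DN discs (SD, n = 3 each). Those for 10 hemocyte markers lay between 7.88 and 8.03 in ACT discs and between 7.93 and 8.11 in DN discs. All salivary gland, fat body and tracheal markers, and 8 of 10 hemocyte markers, lay above the highest yeast control on all 6 arrays. So did 88.8% of all genes, and passing this level therefore does not show that a tissue was present.

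The question of which cuticle genes are expressed in these discs had a different answer for each measure of background. On all 6 arrays, 86 of the 92 cuticle genes (93.5%) lay above the highest yeast control, which read 5.68 to 6.17 depending on the array. So did 88.8% of all 10844 genes. So did 20 of 29 measured genes of adult testis, accessory gland and egg shell, which a larval wing disc does not hold. These 29 genes, called absent-organ genes here, had means over the 6 arrays between 5.25 and 9.84. A signal of 8 or 9 was therefore also reached by genes of organs that were not sampled, and signals of different probe sets depend on their probes, so they give no order of transcript abundance.

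Against the median of the absent-organ genes on each array, 7.75 to 8.32, 44 of the 92 cuticle genes (47.8%) were higher on all 6 arrays and 27 on none. Of all genes 43.5% were higher on all 6. Against their 90th percentile, 9.55 to 9.79, 9 of the 92 cuticle genes (9.78%) were higher on all 6 arrays and 77 on none, beside 10.99% of all genes. At each of these levels the share of cuticle genes was near that of all genes.

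**Figure D1:**
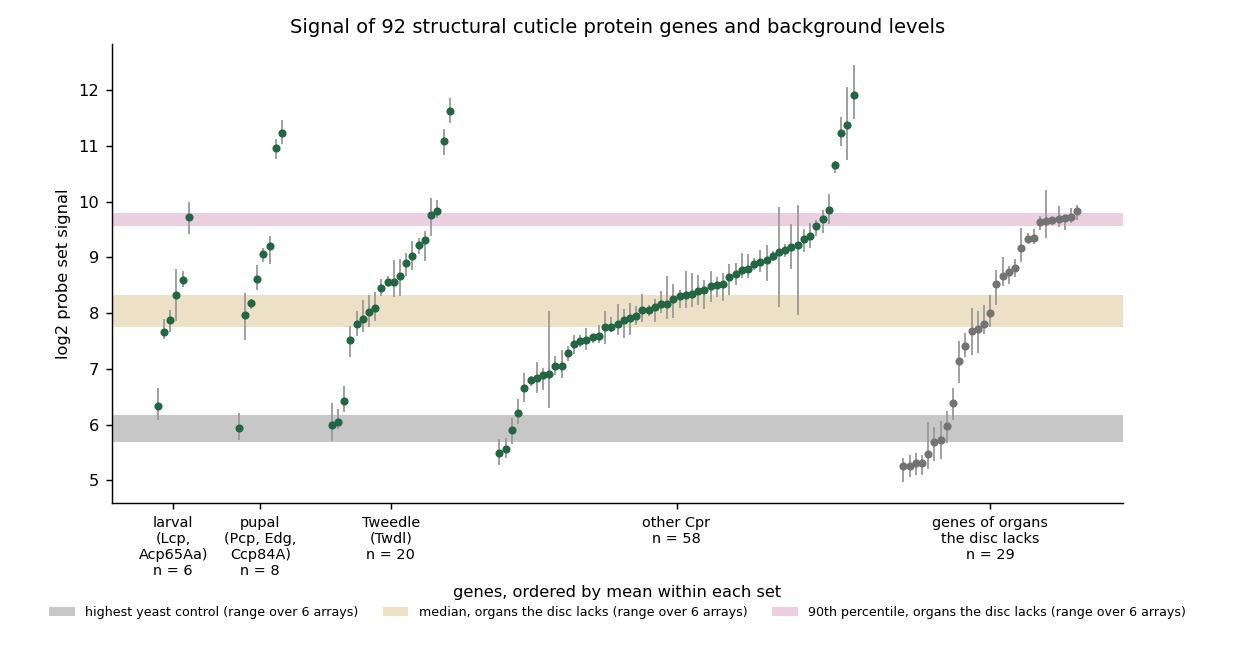
Log2 probe set signal (vertical axis) of the 92 cuticle protein genes by subfamily and of 29 genes of organs the disc lacks, each point the mean of 6 arrays and each grey line the lowest to highest array. The bands give the lowest to highest array value of 3 background levels; 9 cuticle genes lie above the uppermost level on all 6 arrays.

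The 9 genes above the 90th percentile were spread over the subfamilies. They were 0 of 6 larval genes, 2 of 8 pupal genes (Ccp84Ad and Ccp84Ae), 2 of 20 Tweedle genes (TwdlM and TwdlJ) and 5 of 58 other Cpr genes (Cpr12A, Cpr49Ac, Cpr64Aa, Cpr64Ac and Cpr73D). At the median of the absent-organ genes the counts were 2 of 6 larval, 5 of 8 pupal, 11 of 20 Tweedle and 26 of 58 other Cpr genes. TwdlC, also among the 10 genes of highest mean signal, passed the 90th percentile on 5 arrays. It read 9.76 ± 0.07 in ACT discs and 9.89 ± 0.14 in DN discs (SD, n = 3 each), with overlapping groups.

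For 3 of the 9 genes a second probe set of the same gene did not pass that level on any array. The representing probe set of TwdlM read 11.52 ± 0.09 in ACT discs and 11.72 ± 0.14 in DN discs (SD, n = 3 each), while its other probe set read 8.10 ± 0.22 in ACT discs and 8.03 ± 0.05 in DN discs. For TwdlJ the probe sets read 11.06 ± 0.19 and 7.46 ± 0.62 in ACT discs, and 11.11 ± 0.19 and 7.33 ± 0.54 in DN discs. For Cpr73D they read 9.86 ± 0.21 and 7.74 ± 0.22 in ACT discs, and 9.83 ± 0.27 and 7.81 ± 0.26 in DN discs. Both probe sets of TwdlM, both of TwdlJ and the one that represents Ccp84Ad bear name endings by which the manufacturer marks probe sets of few unique probes, of relaxed design rules or shared by a gene family, so signal from similar genes cannot be told apart there. The remaining 5 genes above the 90th percentile, Ccp84Ae, Cpr12A, Cpr49Ac, Cpr64Aa and Cpr64Ac, had 1 probe set each.

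Among the larval genes, Lcp65Aa read 9.77, 9.998 and 9.62 in ACT1, ACT2 and ACT3 and 9.86, 9.43 and 9.63 in DN1, DN2 and DN3. It passed the 90th percentile of the absent-organ genes on 2 arrays. Lcp65Af read 6.50, 6.66 and 6.22 in ACT discs and 6.34, 6.19 and 6.07 in DN discs, above the highest yeast control on all 6 arrays and above the median of the absent-organ genes on 0. Lcp65Af and Lcp65Aa lie in a run of 18 neighbouring cuticle genes of chromosome arm 3L, which also holds Acp65Aa.

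Among the pupal genes, the Ccp84A genes lie side by side with Edg84A on arm 3R. Ccp84Ad read 11.30, 11.03 and 11.27 in ACT discs and 11.46, 11.05 and 11.23 in DN discs, and Ccp84Ae read 11.06, 10.83 and 10.86 in ACT discs and 11.11, 10.76 and 11.11 in DN discs. The groups overlapped for both. Edg84A, known as a target of the nuclear receptor FTZ-F1 in prepupae, read 8.87, 8.56 and 8.42 in ACT discs and 8.81, 8.55 and 8.41 in DN discs, again with overlap. Edg78E was the pupal gene not above the highest yeast control on every array, passing it on 2, at 5.94 ± 0.25 in ACT discs and 5.93 ± 0.10 in DN discs (SD, n = 3 each).

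Besides Edg78E, the genes that did not exceed the highest yeast control on all 6 arrays were TwdlL and TwdlS among the Tweedle genes and Cpr47Ec, Cpr49Ae and Cpr67Fa2 among the other Cpr genes. TwdlL did so on 4 arrays, TwdlS and Cpr47Ec on 3 and Cpr49Ae on 1. Cpr67Fa2, at 5.50 ± 0.09 in ACT discs and 5.49 ± 0.24 in DN discs (SD, n = 3 each), did so on 0. For 2 of these genes a probe set shared with another gene was above it on all 6 arrays. The one shared by Cpr67Fa2 and Cpr67Fa1 read 8.28 ± 0.02 in ACT discs and 8.28 ± 0.15 in DN discs, and the one shared by TwdlL and TwdlB read 7.62 ± 0.32 in ACT discs and 7.61 ± 0.16 in DN discs (SD, n = 3 each).

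The comparison of the receptor forms asks which cuticle genes respond to the receptor's signal. By limma's moderated test, Benjamini-Hochberg adjusted over 10844 genes, 0 of the 92 cuticle genes passed an adjusted p of 0.05, and neither did any other gene (0%, or 0 of 10844). The adjusted p was 0.9998 for each of the 92 cuticle genes. At an unadjusted p under 0.05 there were 6 of the 92 cuticle genes, beside 2.38% of all genes. Of the 6, 4 were lower in ACT discs (1.48% of all genes) and 2 higher (0.904% of all genes). With 3 arrays a group, the smallest two-sided p that an exact permutation test allows is 0.1.

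Most cuticle genes had nearly the same signal in both groups. Of the 92, 47 were higher and 45 lower in ACT discs, with a median log2 difference (ACT minus DN) of 0.01, as over all genes (0.01). The difference lay within 0.2 of 0 for 82 of the 92 cuticle genes (89.1%) and for 79.9% of all genes. It was beyond 0.5 in either direction for 4 cuticle genes (4.35%), Cpr65Ec, Edg91, Cpr49Ah and Cpr12A, and for 1.47% of all genes.

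By subfamily the median log2 difference was -0.05 for the 6 larval genes, 0.01 for the 8 pupal, 0.01 for the 20 Tweedle and 0.02 for the 58 other Cpr genes. The range of differences was narrowest in the larval genes, between -0.17 and 0.26, and in the Tweedle genes, between -0.31 and 0.24. It ran from -0.61 to 0.02 in the pupal genes and from -1.16 to 0.72 in the other Cpr genes, which are also the most numerous. The pupal value of -0.61 is that of Edg91 alone. From the 25th to the 75th percentile the pupal genes were the narrowest, between -0.05 and 0.01. These percentiles were -0.07 and 0.11 for the larval, -0.11 and 0.07 for the Tweedle and -0.09 and 0.10 for the other Cpr genes. With 1 array left out the subfamily medians changed sign: they lay between -0.06 and 0.03 for the larval, -0.10 and 0.05 for the pupal, -0.06 and 0.12 for the Tweedle and -0.03 and 0.06 for the other Cpr genes. No test was made between subfamilies.

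**Figure D2:**
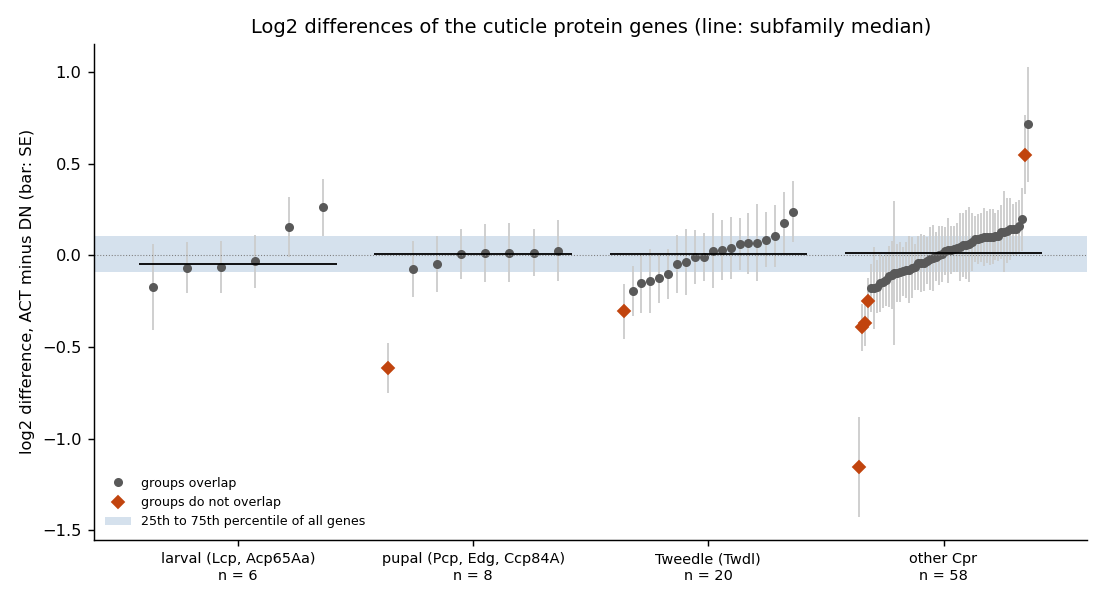
Log2 difference of each cuticle protein gene, ACT minus DN (vertical axis), by subfamily, with the standard error of the limma fit as grey bars and the subfamily median as a black line. The blue band spans the 25th to 75th percentile of all 10844 genes; 7 genes whose groups do not overlap are orange diamonds, 6 of them below 0.

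The 3 ACT values and the 3 DN values did not overlap for 7 of the 92 cuticle genes (7.61%), against 6.35% of all genes. Of these, 6 were lower in ACT discs (3.12% of all genes) and 1 was higher (3.24% of all genes). With 1 array left out, which makes separation easier, 11 to 17 cuticle genes did not overlap, beside 11.98% to 23.46% of all genes.

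The gene of largest difference was Cpr65Ec. It read 8.80, 7.96 and 9.17 in ACT1, ACT2 and ACT3 and 9.95, 9.88 and 9.58 in DN1, DN2 and DN3. All ACT arrays lay below all DN arrays, and the ACT arrays were spread more widely, with ACT2 the lowest. The means were 8.64 ± 0.62 in ACT discs and 9.80 ± 0.19 in DN discs (SD, n = 3 each). The log2 difference was -1.16 (SE 0.27), or 2.23-fold lower in ACT discs (limma adjusted p = 0.9998). Its neighbours Cpr65Ea and Cpr65Eb, in the same run of 3 cuticle genes on arm 3L, differed by 0.10 and 0.14 on the log2 scale. With 1 array left out the difference of Cpr65Ec lay between -1.42 and -0.82.

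Edg91 had the smallest unadjusted p of the 92 cuticle genes. It encodes a glycine-rich cuticle protein whose transcript depends on ecdysone, and it read 7.70, 7.52 and 7.75 in ACT1, ACT2 and ACT3 and 8.14, 8.30 and 8.37 in DN1, DN2 and DN3. The groups were separated by more than the spread within either. The log2 difference was -0.61 (SE 0.14), or 1.53-fold lower in ACT discs (limma adjusted p = 0.9998), and between -0.68 and -0.54 with 1 array left out. Its signal passed the median of the absent-organ genes on 2 of the 6 arrays.

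Cpr64Aa was above the 90th percentile of the absent-organ genes on all 6 arrays, and it was lower in every ACT disc sample than in any DN one. It read 10.998, 11.11 and 10.99 in ACT1, ACT2 and ACT3 and 11.35, 11.51 and 11.42 in DN1, DN2 and DN3. Its log2 difference was -0.39 (SE 0.13), 1.31-fold lower in ACT discs. The 3 Cpr genes that follow it on arm 3L, Cpr64Ab, Cpr64Ac and Cpr64Ad, had log2 differences of -0.01, 0.02 and -0.04.

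Cpr51A, TwdlE and Cpr49Ab were the remaining genes that were lower without overlap. Cpr51A read 7.88, 7.83 and 7.88 in ACT discs and 8.22, 8.33 and 8.15 in DN discs, a log2 difference of -0.37 (SE 0.13). TwdlE read 8.31, 8.61 and 8.61 in ACT discs and 8.67, 8.81 and 8.97 in DN discs, a log2 difference of -0.31 (SE 0.15). The highest ACT value of TwdlE lay just under its lowest DN value. Cpr49Ab, which was under the median of the absent-organ genes on every array, read 6.88, 6.99 and 6.92 in ACT discs and 7.23, 7.21 and 7.09 in DN discs, a log2 difference of -0.25 (SE 0.13).

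Cpr12A was the gene that was higher in ACT discs without overlap. It read 11.46, 11.44 and 12.06 in ACT1, ACT2 and ACT3 and 10.74, 11.28 and 11.29 in DN1, DN2 and DN3. The gap between the groups was small beside the spread within each, with ACT3 high and DN1 low. The log2 difference was 0.55 (SE 0.22), or 1.46-fold (limma adjusted p = 0.9998). It was 0.34 without ACT3 and 0.37 without DN1.

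Cpr49Ah had the largest difference toward higher signal in ACT discs, 0.72 (SE 0.31) on the log2 scale, and its groups overlapped. It read 6.82, 6.96 and 8.03 in ACT1, ACT2 and ACT3 and 6.37, 6.29 and 7.0005 in DN1, DN2 and DN3. Its signal passed the median of the absent-organ genes on 1 of the 6 arrays, ACT3. The array ACT3 stood above the other ACT arrays, and without it the log2 difference was 0.34. Between arrays of the same number the ACT value was always the higher, but array numbers were not taken as pairs in the main test. Further genes toward higher signal were Lcp65Af at 0.26 (SE 0.16), the larval gene of smallest p, and TwdlW at 0.24 (SE 0.16), both with overlapping groups. Without ACT2 these were 0.16 and 0.13, and TwdlW was 0.38 without ACT3. Below them came Cpr62Ba at 0.20, TwdlD at 0.18, Cpr47Ec at 0.16 and Cpr65Eb at 0.14. Leaving out single arrays moved these by over 1.5 times. Cpr62Ba was at 0.0548 without ACT2, 0.126 without DN2 and 0.330 without ACT3. TwdlD was at 0.0905 without ACT2, 0.0909 without DN2, 0.113 without DN1 and 0.327 without DN3. Cpr47Ec was at 0.0873 without ACT1 and 0.0748 without DN1, and Cpr65Eb at 0.0936 without ACT1, 0.0862 without DN3 and 0.224 without ACT3. On the lower side, TwdlM at -0.19 and Cpr30B at -0.18 followed the genes already named. TwdlM was at -0.0629 with the mean of its probe sets, -0.112 with quantile normalization and -0.124 without DN2.

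**Figure D3:**
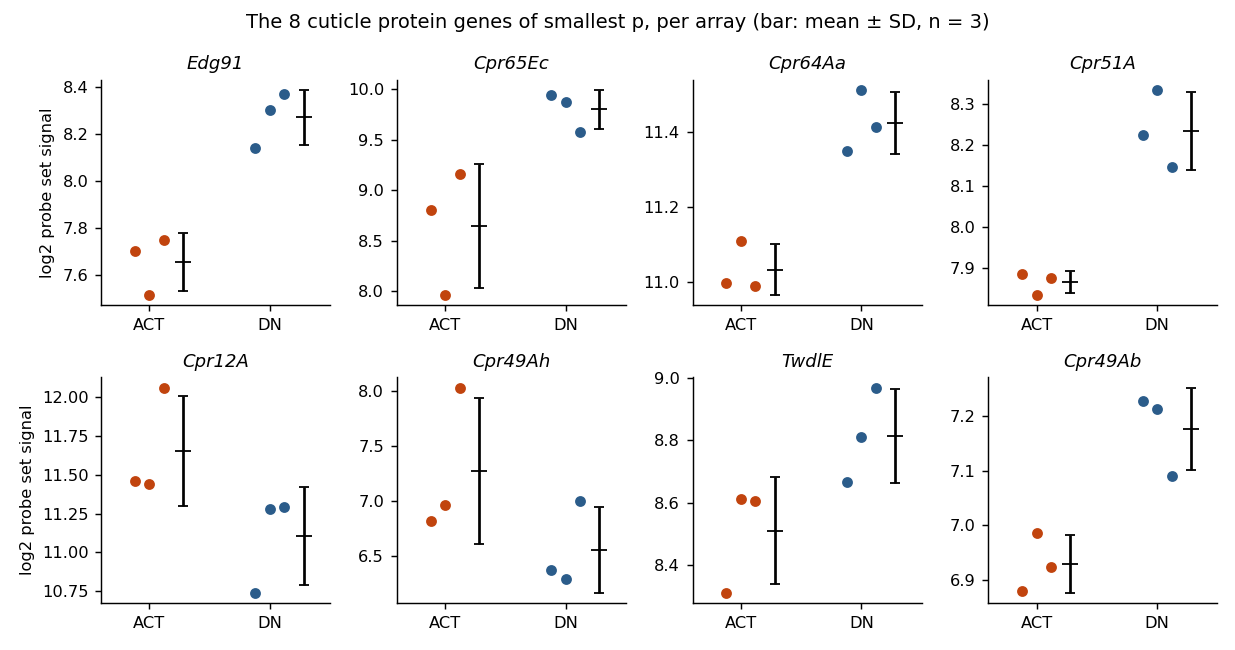
Log2 probe set signal per array (vertical axis, a separate scale in each panel) of the 8 cuticle protein genes of smallest unadjusted p, ACT arrays left and DN arrays right of each panel, in the order of their replicate numbers, with mean ± SD (n = 3) as black bars. In 6 of the 8 panels all ACT points lie below all DN points, in Cpr12A they lie above, and in Cpr49Ah they overlap.

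A probe set that does not represent its gene had a difference of similar size. Cpr66D has 2 probe sets, and the one that represents it had a log2 difference of -0.10 (SE 0.16). The other probe set read 7.69, 7.55 and 7.69 in ACT1, ACT2 and ACT3 and 8.18, 8.20 and 8.63 in DN1, DN2 and DN3, without overlap. Its log2 difference was -0.69 (SE 0.16), 1.62-fold lower in ACT discs (limma adjusted p = 0.9999 over all probe sets). Of the 6 cuticle genes with several probe sets, 3 had probe sets whose differences were of opposite sign: Cpr73D (0.03 and -0.07), TwdlJ (-0.05 and 0.13) and TwdlM (-0.19 and 0.07).

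Runs of neighbouring cuticle genes mostly held differences of both signs. In the RefSeq gene order, 13 runs of at least 3 cuticle genes with no more than 2 other protein-coding genes between neighbours held 2 or more of the 92 genes. In 11 of these 13 runs the differences were of both signs, the exceptions being Cpr62Ba to Cpr62Bc and Cpr67Fa1 to Cpr67Fb, each with positive differences only. The Tweedle run TwdlM to TwdlQ on arm 3R, with 11 of its 13 genes measured, had log2 differences between -0.19 and 0.18. The run Edg84A to Ccp84Aa, with 5 of 8 measured, stayed between -0.07 and 0.02. The 7 genes Cpr47Ea to Cpr47Eg stayed between -0.13 and 0.16, and in none of these 3 runs did any gene's groups separate.

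**Figure D4:**
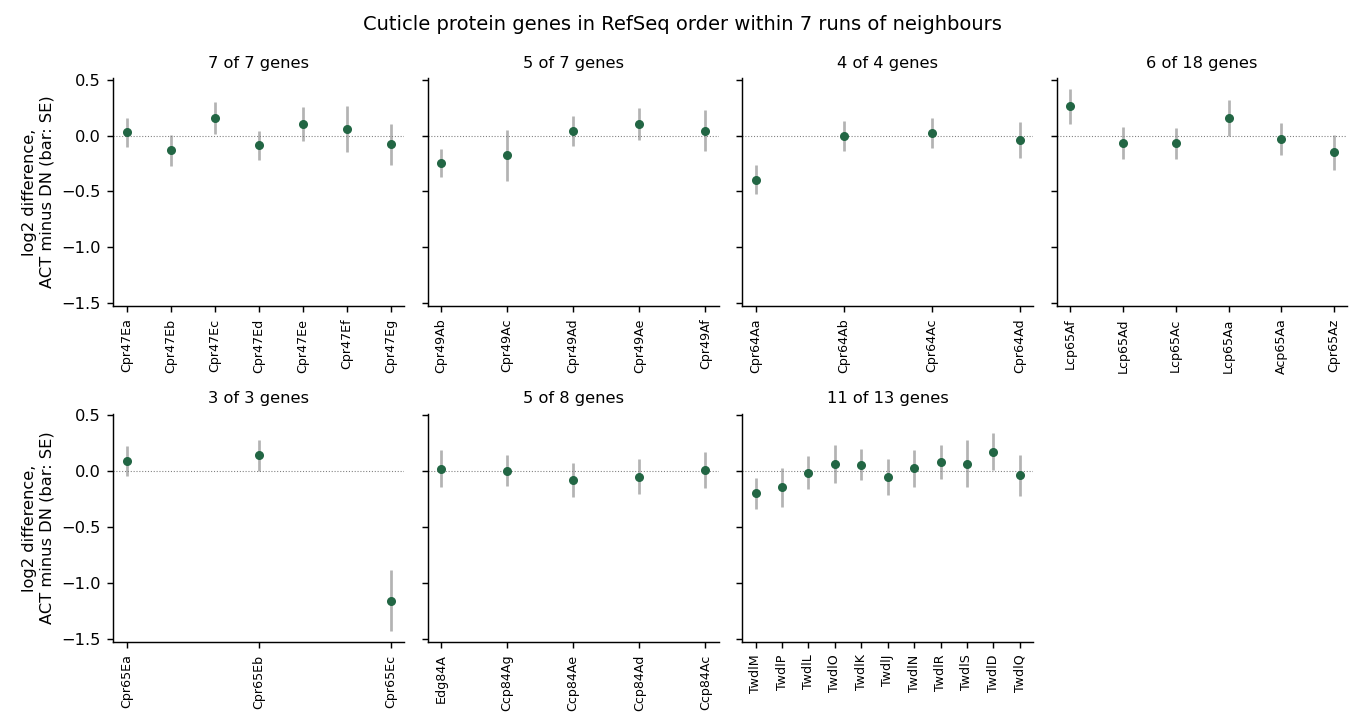
Log2 difference, ACT minus DN, with the standard error of the limma fit (vertical axis, 1 scale), of cuticle protein genes in their RefSeq order within 7 runs of neighbouring genes; the panel titles give how many of a run's genes were measured. Cpr65Ec and Cpr64Aa lie below 0 while their measured neighbours lie near 0.

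Some cuticle genes varied widely between arrays, and not all of them in a way that follows the receptor forms. As a measure that needs no comparison of 1 probe set with another, the range over the 6 arrays was taken for each gene. This range was added after the data had been seen, and it includes any difference between the groups. Its median was 0.46 on the log2 scale for the 92 cuticle genes, 0.50 for all genes and 0.43 for the absent-organ genes, of which the widest had 0.86. A wider range than that was seen for 6 cuticle genes (6.52%) and for 12.1% of all genes. The 6 were Cpr65Ec (1.98), Cpr78E (1.78), Cpr49Ah (1.74), Cpr12A (1.32), Cpr49Ac (0.98) and Lcp9 (0.95).

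Of these, Cpr49Ah, Cpr78E, Cpr49Ac and Lcp9 had overlapping groups, and Cpr78E and Lcp9 are named for this range alone. Cpr78E read 8.85, 8.84 and 9.47 in ACT1, ACT2 and ACT3 and 8.12, 9.43 and 9.90 in DN1, DN2 and DN3, a log2 difference of -0.10. Its low arrays were DN1, ACT1 and ACT2, which are also the 3 arrays with the lowest means of the salivary gland, fat body, tracheal and wing disc markers. For the wing disc markers, however, ACT2 (9.43) was close to DN3 (9.44). The hemocyte markers differed, with their lowest mean in ACT3 (7.88). Lcp9, a larval gene on arm 2R, read 7.85, 8.46 and 8.39 in ACT discs and 7.97, 8.44 and 8.80 in DN discs, lowest in ACT1 and DN1. Cpr49Ac read 11.98, 11.47 and 11.98 in ACT discs and 11.82, 12.45 and 11.70 in DN discs, with DN2 high and ACT2 low. The part of salivary gland, fat body or other tissue RNA in any of these signals was not tested. In whole discs, fewer cells of a type and less RNA per cell cannot be told apart.

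**Figure D5:**
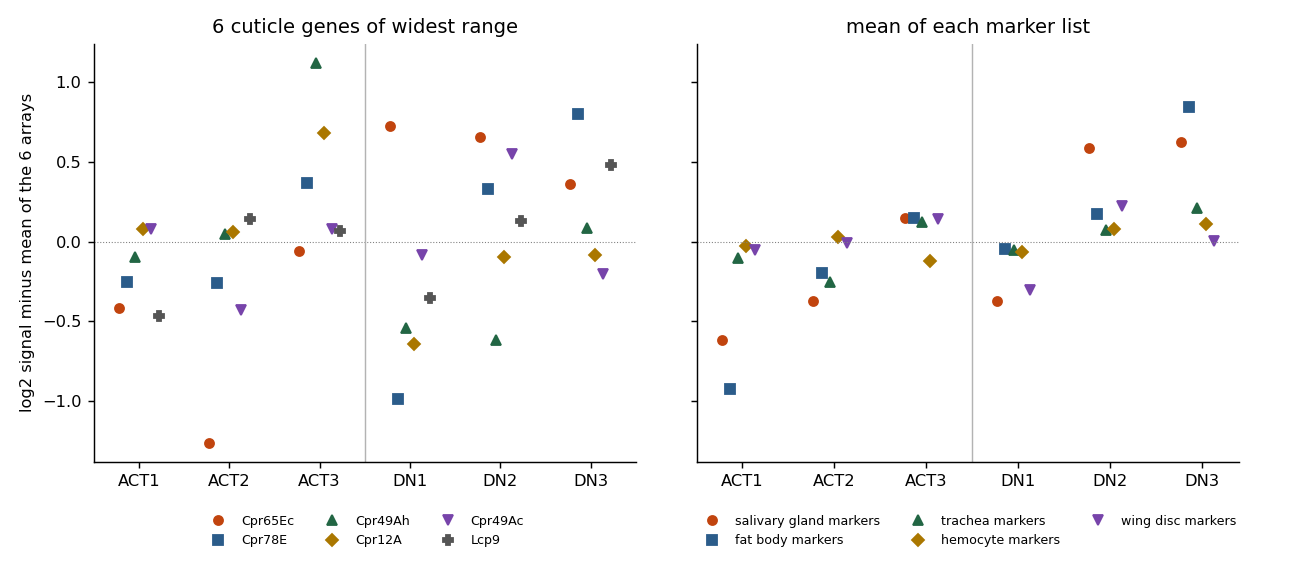
Log2 signal minus the mean of the 6 arrays (vertical axis) on each array, for the 6 cuticle protein genes of widest range (left) and for the means of 5 lists of tissue markers (right), ACT arrays before DN arrays. Cpr78E is lowest in ACT1, ACT2 and DN1, as are the means of the salivary gland, fat body, tracheal and wing disc markers. For the wing disc markers ACT2 lies close to the mean of the 6 arrays. The hemocyte markers are lowest in ACT3. List medians, which are not drawn, order the arrays otherwise for the fat body and tracheal markers.

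Genes that make, bind or remodel chitin, build the cuticle or tan it form a list that holds none of the 92 structural genes. Of its 52 names 47 were measured, with 16 higher and 31 lower in ACT discs and a median log2 difference of -0.05, beside 0.01 for the structural genes and for all genes. None passed the adjusted threshold. At an unadjusted p under 0.05 there were 6 of 47, all lower in ACT discs (1.48% of all genes), and 6 of 47 were lower without overlap (3.12% of all genes). The count at an unadjusted p under 0.05 was 10 without ACT3, where the share of all genes was 7.9%. The 6 of small p were obst-B at -0.96 (SE 0.20), Gasp at -0.92 (SE 0.27), verm at -0.66 (SE 0.20), Idgf4 at -0.60 (SE 0.15), Cht5 at -0.49 (SE 0.16) and Cht2 at -0.34 (SE 0.14). Of these verm had overlapping groups. In its place Vajk1, at -0.10 (SE 0.12), was among the 6 that were lower without overlap. The genes obst-B and Gasp encode chitin-binding proteins, verm a chitin deacetylase, Cht5 and Cht2 chitinases, and Idgf4 a secreted chitinase-like protein. Gasp, verm, serp and pio are tracheal markers as well, and the part of attached trachea in their signal was not tested. Vajk2, measured by a probe set of relaxed design rules, and obst-A had log2 differences of 0.03 (SE 0.16) and -0.37 (SE 0.18), both with overlapping groups.

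Genes of the response to ecdysone gave 10 higher and 8 lower in ACT discs among 18 measured of 24 names, with a median log2 difference of 0.00. The gene with an unadjusted p under 0.05 was br, which encodes the Broad zinc finger proteins of the pupal stage, at -0.45 (SE 0.19). Some of the list varied widely within both groups, with a widest range over the 6 arrays of 3.39. Hr4 read 10.78, 9.49 and 8.34 in ACT1, ACT2 and ACT3 and 10.33, 9.17 and 7.39 in DN1, DN2 and DN3. ImpE1 fell likewise, with 11.42, 10.76 and 9.10 in ACT discs and 10.44, 9.99 and 8.19 in DN discs. In the same order of arrays usp rose, with 6.27, 6.35 and 6.67 in ACT discs and 6.11, 6.44 and 6.81 in DN discs. The rise of usp was smaller than these falls, and usp lay under the median of the absent-organ genes on every array. A link of this variation to the cuticle genes was not tested.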

How the data were processed

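The authors deposited log2 signals of probe sets, made with GCRMA according to the submitters' processing notes, with version and settings not given in the sources used here. That the scale is log2 follows from the range of the values, 4.72 to 15.08. Depth does not apply to arrays; their number, 3 per group, limits the precision. Of 14010 probe sets, 44 controls were left out; 12443 of the other 13966 had 1 symbol, and RefSeq (Release 6 plus ISO1 MT) changed 0 of these. The array's genome build is not given, so no coordinates are printed.

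The test was limma 3.58.1 (R 4.3.3; lmFit, eBayes, two-sided, no covariate, no filter), Benjamini-Hochberg adjusted over all genes, a step tested on simulated data. The members and lists were chosen with earlier results of these data known. Genes named were the 10 of highest mean signal, the 8 of smallest p in each direction and, per subfamily, those of highest and lowest mean and smallest p (mean signal serves to choose genes, not to order abundance); Cpr78E, Lcp9 and others beyond this rule were added after their values were seen. Alternatives were a filter at a mean log2 of 6, median centring, quantile normalization, trend and robust prior, array weights, averaged probe sets, the replicate block, other background levels and each array left out.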

Additional observations from a re-analysis of the deposited data

How the results depend on the processing

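Under every alternative run, 0 of the 92 cuticle genes passed the adjusted threshold; the lowest adjusted p of a named one was 0.29, for Cpr65Ec without ACT3. Over all genes, 1 gene, CG13053, was called under each of 4 settings: quantile normalization, a robust prior with trend, weighted arrays, and averaged probe sets. With 1 array left out 0 to 3 were called (yip7 without DN1, and CG13053, CG4382 and Obp56a without ACT3). These genes are named after their values were seen. The count of cuticle genes without overlap was 11 to 17 with 1 array left out, where fewer arrays must separate (11.98% to 23.46% of all genes). It was 7 with the filter (6.37% of all genes), 8 with quantile normalization (7.17%), 8 with averaged probe sets (6.30%) and 10 with median centring (6.78%). The count above background on all 6 arrays was 86 with the highest yeast control, also with any 1 array left out, 44 with the median and 9 with the 90th percentile of the absent-organ genes, and 48 with the array median. Array numbers were not taken as pairs in the main test. The correlation over genes of same-numbered deviations from the group means was 0.61, -0.12 and 0.59 for numbers 1, 2 and 3. For arrays of different number it ran from -0.68 (ACT3 with DN1) to 0.31 (ACT2 with DN1). Whether arrays of the same number share a batch was not tested. The replicate block called 0 genes, and under it 10 chitin and cuticle genes had an unadjusted p under 0.05 (5.67% of all genes), against 6 (2.38%) without it. Under the block the SE of Cpr49Ah was 0.14 (limma adjusted p = 0.36), against 0.31 without it. That of Cpr12A was 0.15 (limma adjusted p = 0.62), against 0.22.

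Of 27 named genes, 18 kept the sign of their log2 difference under all alternatives run. The signs that turned belonged to differences under 0.2. With median centring Cpr67Fa2 was at -0.00265. With quantile normalization Ccp84Ad was at 0.0112, Cpr67Fa2 at -0.0558, Edg78E at -0.0359 and TwdlJ at 0.0239. With array weights Ccp84Ad was at 0.0451, Ccp84Ae at 0.0290 and TwdlJ at 0.0708. With the mean of probe sets Cpr73D was at -0.0205 and TwdlJ at 0.0414. With 1 array left out the range was -0.14 to 0.0603 for Ccp84Ad, -0.32 to 0.0520 for Cpr49Ac, -0.0507 to 0.0610 for Cpr64Ac, -0.10 to 0.14 for Cpr67Fa2, -0.0946 to 0.17 for Cpr73D, -0.12 to 0.13 for Edg78E, -0.14 to 0.0596 for TwdlJ and -0.11 to 0.24 for TwdlS. The cause was not tested.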

Other observations

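Probe sets annotated to a cuticle gene and at least 1 other gene stand outside the comparison, since their signal cannot be given to 1 gene. Of 7 such probe sets, 5 lay above the highest yeast control on all 6 arrays and 0 above the 90th percentile of the absent-organ genes on any. The probe set shared by Lcp65Ag1 and Lcp65Ag2 read 5.14 ± 0.07 in ACT discs and 5.25 ± 0.11 in DN discs (SD, n = 3 each), and the one shared by Ccp84Aa and Ccp84Ab read 5.45 ± 0.03 in ACT discs and 5.45 ± 0.10 in DN discs (SD, n = 3 each); neither exceeded the highest yeast control on any array. The one shared by Cpr65Av and Cpr65Aw read 8.76 ± 0.17 in ACT discs and 8.92 ± 0.10 in DN discs (SD, n = 3 each). Those shared by Cpr67Fa2 and Cpr67Fa1 and by TwdlL and TwdlB, given above, exceeded it on all 6. The groups overlapped for all 7.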
